A study of Homo sapiens with 10 samples.

Results

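The proteasome genes of K562 cells, a human chronic myeloid leukemia line, were followed through 2 hours of treatment with 4 inhibitors of transcription. The members were the protein-coding genes whose symbol is PSM followed by a letter from A to G and a number, which gave 48 of the 59204 genes listed in the count tables and of the 19443 that are protein-coding. The cells received actinomycin D (1 µg/mL), which binds DNA and stops RNA polymerases, AZ-5576 (1 µM), an inhibitor of the pause-release kinase CDK9, JQ1 (1 µM), which displaces BET bromodomain proteins from chromatin, A-485 (1 µM), an inhibitor of the acetyltransferases CBP and p300, or the solvent DMSO. All groups, DMSO included, carried 100 µM 4-thiouridine during the last 1 hour, and each of the 5 groups held 2 libraries of this 1 cell line. In SLAM-seq the incorporated 4-thiouridine appears in sequencing as T-to-C conversions, so labelled counts measure mRNA made in that hour and total counts measure the whole mRNA pool.

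The proteasome is the protease that degrades ubiquitin-tagged proteins. Its core is a barrel of alpha and beta rings with the active sites on the inside of the beta rings, and a regulatory cap of ATPases, scaffold and lid subunits binds ubiquitin, unfolds the substrate and feeds it into the barrel. Dedicated chaperones build the core and the cap, and activators or inhibitors can take the place of the cap. The subunits are made in fixed proportions, and the transcription factor NFE2L1, which binds antioxidant response elements, raises their genes together when proteasome activity is low.

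The 48 members comprised 8 alpha ring genes, 7 beta ring genes, 4 beta subunits of the immunoproteasome and thymoproteasome, 6 cap ATPases, 11 other cap subunits, 3 cap assembly chaperones, 4 core assembly chaperones and 5 activators or inhibitors. The antioxidant response element has the core TGACNNNGC, where N is any base. It was searched on both strands in RefSeq promoter windows (GRCh38.p14, 250 bases before to 50 after each start), which covered 42 of the 48 members. It was found in 29.4% of the 51 member windows, belonging to 15 genes, and in 13.3% of all 35116 windows. CCAAT was found in 39.2% of member windows and 34.6% of all windows, and GGGCGG in 68.6% and 45.0%. Below are 3 of the 5 genes whose total mRNA fell with actinomycin D (PSMG2, PSMD12 and PSMD5), followed by PSMA4, PSMB3 and PSMD3, for which no change in total mRNA passed the test, so that windows with a match can be seen beside both outcomes. Capitals mark the match, on the strand of the gene.
PSMG2 (chr18:12658669-12658737, plus strand): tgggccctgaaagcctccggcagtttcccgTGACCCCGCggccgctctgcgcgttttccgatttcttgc
PSMD12 (chr17:67366704-67366772, minus strand): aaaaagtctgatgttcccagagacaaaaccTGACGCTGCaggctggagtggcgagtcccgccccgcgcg
PSMD5 (chr9:120843018-120843086, minus strand): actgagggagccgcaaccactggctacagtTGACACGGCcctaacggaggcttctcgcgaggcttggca
PSMA4 (chr15:78540630-78540698, plus strand): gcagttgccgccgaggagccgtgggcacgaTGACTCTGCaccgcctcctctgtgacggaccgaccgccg
PSMB3 (chr17:38752607-38752675, plus strand): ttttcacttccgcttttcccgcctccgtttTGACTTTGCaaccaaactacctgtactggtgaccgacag
PSMD3 (chr17:39980740-39980806, plus strand): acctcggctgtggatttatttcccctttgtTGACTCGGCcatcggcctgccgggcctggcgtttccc
The match ended 30 bases before the start of PSMG2 and 156 bases before that of PSMD12. PSMD6 and PSMD7, the other genes that fell with actinomycin D, held no such letters in their windows. A match is a run of letters and not a measured binding site.

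The libraries held 14916671 to 17918971 human counts each, with 1817677 to 2212752 counts from added Drosophila RNA (the spike-in), to which all values below are scaled. Labelled counts were 1410 and 1614 with actinomycin D, 53503 and 62513 under AZ-5576, 342847 and 322771 with JQ1, 411716 and 447455 with A-485, and 448401 and 434411 in DMSO. The erythroid markers fixed for K562 were present in every library (GATA1 2397 to 3169 total counts, HBG1 26080 to 33364), and the B-cell marker MS4A1 was at 0. Other markers listed as foreign to K562 were not all absent: EPCAM had 929 to 1116 total counts. The labels do not say whether the 2 libraries of a group came from separate cultures, so p-values measure the spread between libraries, which may be technical.

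New proteasome mRNA was nearly gone with actinomycin D and AZ-5576, at 51.5% of DMSO with JQ1 and close to the DMSO level with A-485. Summed over the 48 members, labelled counts per 1000 spike-in counts were 0.00968 ± 0.00385 with actinomycin D, 0.0518 ± 0.00909 under AZ-5576, 0.823 ± 0.00236 with JQ1, 1.56 ± 0.117 with A-485 and 1.60 ± 0.0470 in DMSO (SD, n = 2 each). The sums were 0.605% of the DMSO sum for actinomycin D, 3.24% for AZ-5576, 51.5% for JQ1 and 97.7% for A-485. The A-485 and DMSO sums differed by less than their SDs. With 2 libraries against 2, no two-sided permutation p can be below 0.33, so the sums have no p.

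The classes followed the same order of drugs up to JQ1. With JQ1 the class sums were between 41.0% of DMSO, for the cap assembly chaperones, and 60.8%, for the beta ring, and with A-485 between 78.9%, for the activators and inhibitors, and 112%, for the beta ring. In each of the 7 classes with tested members, both JQ1 libraries were below both DMSO libraries. The core assembly chaperones kept 4.53% of the DMSO sum with actinomycin D, and the other 6 classes at most 0.452%.

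**Figure D1:**
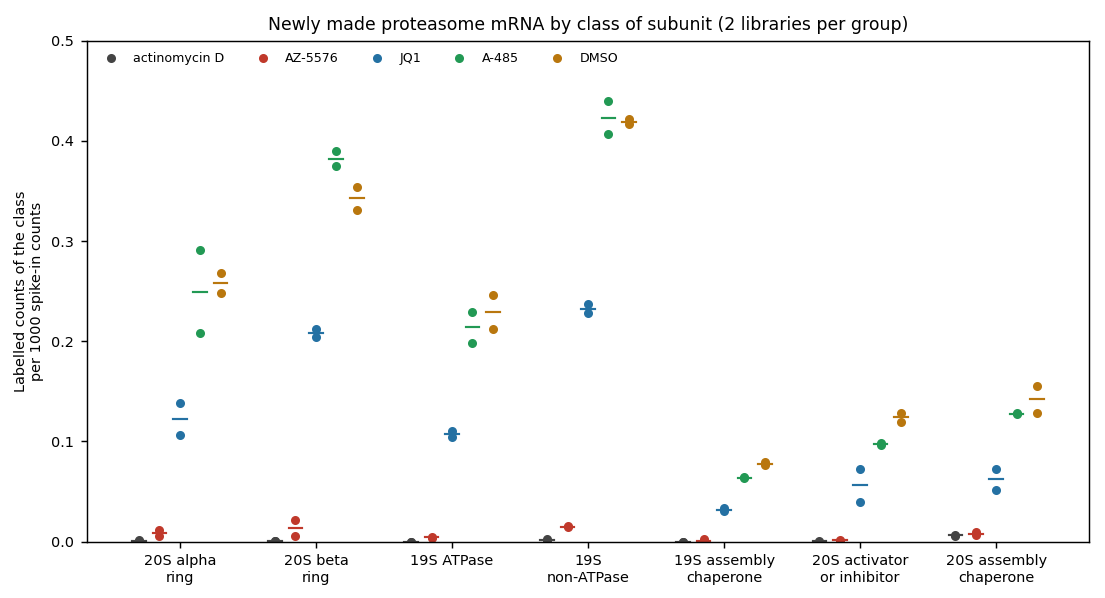
Labelled counts per 1000 spike-in counts, summed over the members of each class on a linear axis; points are libraries and short lines are means of the 2 libraries of a group. The JQ1 points lie between the AZ-5576 and the DMSO points in each class, and the A-485 points lie near the DMSO points in the rings and the cap.

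For single genes, 43 members passed the filter in labelled RNA (2 or more libraries with 10 or more counts), and PSMA8, PSMB8, PSMB9, PSMB10 and PSMB11 did not. With actinomycin D, 43 of the 43 were lower than in DMSO (edgeR quasi-likelihood test, adjusted p under 0.05), and so were 99.2% of all 7996 genes tested. Under AZ-5576, 43 of 43 were lower, against 94.7% of all genes. Both shares are near those of all genes. PSMB6, the beta subunit with the caspase-like active site, had the most labelled counts in DMSO, 160 and 154. It had 0 and 0 with actinomycin D and 0 and 0 under AZ-5576, which at a limit of 3 counts over the group is at least 118-fold lower and at least 110-fold lower than in DMSO.

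A few members kept label. With actinomycin D, 35 of the 43 had no labelled count in either library, against 92.8% of all genes, and 26 of the 41 counts left belonged to PSMG1, a chaperone that pairs with PSMG2 to build the alpha ring. PSMG1 had 11 and 15 labelled counts with actinomycin D, 10 and 11 under AZ-5576, and 45 and 49 in DMSO. That was 24.5% of DMSO with actinomycin D (95% exact counting interval 15.2 to 38.2%) and 21.3% under AZ-5576 (12.6 to 34.5%), so a similar number of labelled PSMG1 reads was present under both drugs. The fall of PSMG1 passed the test with both drugs, and the fitted difference between AZ-5576 and actinomycin D was -0.20 ± 0.56 (log2, SE), with an edgeR adjusted p of 1.00. Sequence differences of the line and sequencing errors can also be read as conversions, and their part in these counts was not tested.

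Under AZ-5576, 11 of the 43 members (25.6%) had no labelled count, against 46.6% of all genes, and 17 had more than 3. With groups at 0 put at the limit of 3 counts, the median label left was 3.01% of DMSO over the members and 6.82% over all genes. With actinomycin D these medians were 1.89% and 5.11%. Both the number of genes at 0 and these medians depend on the depth of a gene in DMSO, whose effect was not tested. PSMD13, a lid subunit, had 8 and 12 labelled counts under AZ-5576 and 49 and 40 in DMSO, or 21.5% of DMSO (12.5 to 35.2%). PSMB1, a beta subunit without an active site, had 6 and 29 under AZ-5576 and 111 and 110 in DMSO, so its 15.1% of DMSO rests mostly on replicate 2. Compared with actinomycin D, 7 members were higher under AZ-5576 (PSMB1, PSMB4, PSMD1, PSMD13, PSMC4, PSMA3 and PSMD14; edgeR adjusted p under 0.05), or 16.3% of the 43, against 20.5% of all genes. This count was 2 (4.65%) without actinomycin D replicate 1, against 12.2% of all genes, and 4 (9.30%) without actinomycin D replicate 2, against 11.0%. Of the 7, PSMA3 had 7 and 0 labelled counts under AZ-5576, so its call rests on replicate 1. PSMC4 had 2 and 6 and PSMD14 had 3 and 3. PSMD13 overlaps exons of SIRT3 on the other strand, and the strand setting of the counting is not given in the sources used here, so its reads could be shared.

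**Figure D2:**
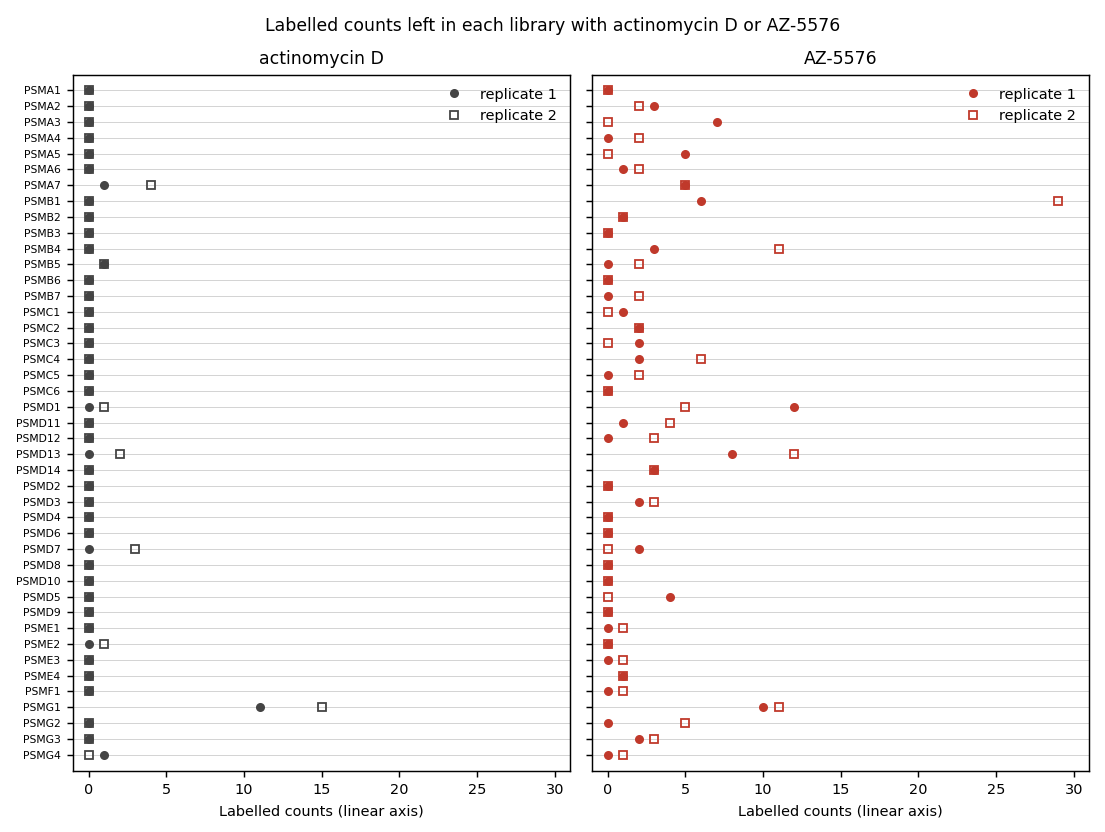
Labelled counts left in each library (linear axis) for the 43 tested members with actinomycin D, left, and AZ-5576, right; filled circles are replicate 1 and open squares replicate 2. With actinomycin D, PSMG1 stands out at 11 and 15 counts and most members sit at 0, and under AZ-5576 the highest value is 29 counts, for PSMB1 in replicate 2.

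JQ1 lowered the new mRNA of 22 of the 43 tested members and raised none (edgeR, adjusted p under 0.05; 0 higher at an unadjusted p under 0.05 and 0 by DESeq2), or 51.2%, against 28.6% of all 7996 genes that were lower and 1.26% that were higher. Among the 7110 genes within the members' range of labelled counts in DMSO, 29.1% were lower. This range takes in most of the 7996 genes, so it does not match the members for depth. The part of depth in the 51.2% was not tested. The median log2 fold change was -0.98 over the 43 members and -0.85 over all genes, and DESeq2 also called 22 members, 21 of them shared. The count rests on each library in part: it was 13 (30.2%) without DMSO replicate 1, against 15.1% of all genes, and 14 (32.6%) without DMSO replicate 2, against 13.8%. With libraries scaled to human instead of spike-in counts (TMM), the median of all genes moved up by 0.86 and 1 member was lower and 2 were higher, against 4.91% and 6.03% of all genes, so the fall is relative to the spike-in.

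In the core, 4 of 7 tested alpha ring genes fell. PSMA2 had 14.0 and 15.1 normalised labelled counts (per 1000000 spike-in counts) with JQ1, against 48.0 and 49.0 in DMSO, a log2 change of -1.73 ± 0.37 (SE; edgeR adjusted p 7.31e-05). Both JQ1 libraries were far below both DMSO libraries. PSMA1 and PSMA6 also fell, by 1.68 and 1.53 on the log2 scale, and PSMA4 fell by 0.99. PSMA1 lost its call without DMSO replicate 1, where its change was -1.27. PSMA5 went against the class, with 21.2 and 11.8 normalised labelled counts with JQ1 and 8.97 and 12.1 in DMSO. The PSMA5 groups overlap, and its change of 0.65 ± 0.53 did not pass the test (edgeR adjusted p 0.349).

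In the beta ring, 4 of 7 fell. They were PSMB2 at -1.23, PSMB7, which has the trypsin-like site, at -1.19, PSMB6 at -0.98 and PSMB4 at -0.84 (log2). PSMB6 had 46.5 and 39.3 normalised labelled counts with JQ1, against 84.4 and 84.7 in DMSO, with no overlap. PSMB5, which has the chymotrypsin-like site and is the target of bortezomib, had a change of -0.78 ± 0.33 that missed the threshold (edgeR adjusted p 0.0587). PSMB1 had 57.4 and 68.2 normalised labelled counts with JQ1 and 58.6 and 60.5 in DMSO, a change of 0.08 ± 0.27. The new mRNA of PSMB1 was therefore within the spread of the libraries, with the DMSO values inside the range of the JQ1 values.

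In the cap, 3 of the 6 ATPases fell (PSMC2, PSMC3 and PSMC4), as did 5 of the 11 other subunits (PSMD13, PSMD7, PSMD8, PSMD1 and PSMD11). PSMD7, which pairs with the deubiquitinase PSMD14 in the lid, had 23.5 and 13.3 normalised labelled counts with JQ1, against 71.2 and 63.8 in DMSO. Its change of -1.87 ± 0.33 had the lowest adjusted p of all members (edgeR, 4.79e-07). PSMC2, one of the ATPases, had 18.5 and 31.7 with JQ1 and 54.3 and 78.1 in DMSO, a change of -1.40 ± 0.31 (edgeR adjusted p 8.95e-05). PSMD13 had the largest estimate, -2.04 ± 0.53, on 15 and 10 counts with JQ1 and 49 and 40 in DMSO. PSMD14 itself changed by -0.43 ± 0.33 and PSMD2, a large scaffold subunit, by 0.24 ± 0.41, and neither passed the test.

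Among the factors that build or modify the particle, 3 of the 4 core assembly chaperones fell (PSMG4 by 1.75, PSMG2 by 1.44 and PSMG3 by 1.36 on the log2 scale), and PSMG1 had a change of -0.28 ± 0.39. PSMG1 is also the member with the most labelled counts left under actinomycin D. Of the 3 cap assembly chaperones PSMD5 fell, with 12.2 and 14.2 normalised labelled counts with JQ1, against 44.8 and 45.1 in DMSO (log2 change -1.77 ± 0.38, edgeR adjusted p 8.41e-05). Of the activators and inhibitors, PSME2, part of the interferon-inducible activator, and PSME3, the nuclear activator, fell by 1.78 and 1.34. PSME3 had 14.9 and 25.1 normalised labelled counts with JQ1 and 46.4 and 55.0 in DMSO, and lost its call without JQ1 replicate 1, where its change was -1.01. PSME2 had 8.44 and 23.7 normalised labelled counts in the DMSO libraries, which differed widely from each other, and 4.97 and 4.26 with JQ1. The labelled fit took the spread of each gene from the trend over all genes, so a wide pair such as this one did not widen its own error.

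A-485 called no member in either direction in labelled RNA (edgeR, adjusted p under 0.05), where 4.86% of all genes were lower and 0.163% higher. At an unadjusted p under 0.05, 3 members were lower (PSME2, PSMD13 and PSMG4) and 0 higher, and DESeq2 called 0. The median change was 0.02 over the members and -0.09 over all genes. PSMB6 had 117 and 103 normalised labelled counts with A-485, against 84.4 and 84.7 in DMSO, a change of 0.38 ± 0.25 whose adjusted p was 0.589 by edgeR. PSMD7 had 60.4 and 42.8 with A-485 and 71.2 and 63.8 in DMSO, a change of -0.39 ± 0.30 (edgeR adjusted p 0.691). The lowest estimate was that of PSME2, with 4.57 and 5.54 with A-485 and 8.44 and 23.7 in DMSO (-1.65 ± 0.67, edgeR adjusted p 0.180). The highest was that of PSMD6, 0.78 ± 0.80, on 14 and 23 labelled counts with A-485 and 6 and 14 in DMSO. The depth limits what this shows: in data simulated for this comparison the labelled test recovered 5% of 2-fold decreases and 72% of 4-fold decreases. The simulation lowered 100 genes 2-fold and 100 genes 4-fold with A-485, among 8582 genes. Every other gene and group was kept at the DMSO level, with 1 common spread. The recovery depends on these settings, which differ from the real libraries, so it is a rough guide to depth.

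**Figure D3:**
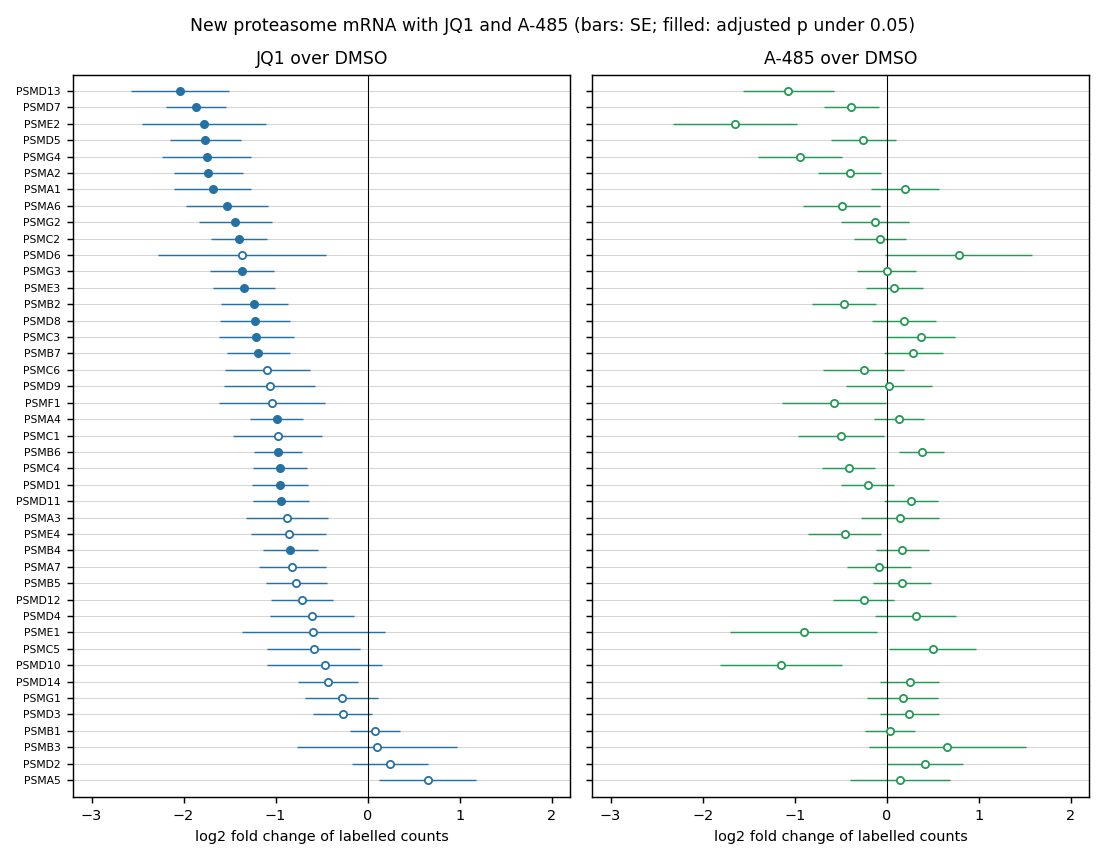
Log2 fold change of labelled counts over DMSO for the 43 tested members with JQ1, left, and A-485, right, in the same order; bars are standard errors and filled points passed an adjusted p under 0.05. The 22 filled JQ1 points run from -2.04 to -0.84, and no A-485 point is filled.

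The difference between A-485 and JQ1 was tested directly. New mRNA of 17 of the 43 members was higher with A-485 than with JQ1 and 0 were lower (edgeR, adjusted p under 0.05; 0 lower at an unadjusted p under 0.05 and 0 by DESeq2), or 39.5%, against 24.8% of all genes higher and 3.14% lower. The 17 were spread over the classes: 3 of the alpha ring (PSMA1, PSMA2 and PSMA4), 4 of the beta ring (PSMB4, PSMB5, PSMB6 and PSMB7), 2 ATPases (PSMC2 and PSMC3), 4 other cap subunits (PSMD6, PSMD7, PSMD8 and PSMD11), PSMD5, PSME3, PSMG2 and PSMG3. The median log2 difference was 0.94 over the members and 0.72 over all genes. PSMB6 had the lowest adjusted p, with 117 and 103 normalised labelled counts with A-485 and 46.5 and 39.3 with JQ1 (log2 difference 1.36 ± 0.26, edgeR adjusted p 4.11e-06). PSMA1 differed by 1.88 ± 0.41, with 31.5 and 47.4 with A-485 and 9.04 and 12.3 with JQ1. PSMB1 did not pass, at -0.04 ± 0.27. DESeq2 called 17 members, 16 of them shared, against 21.9% of all genes. Scaling to human counts gave 2 higher (4.65%), against 6.34% of all genes, and 0 lower, against 7.45%. The count of 17 was smaller without either A-485 library or without JQ1 replicate 2. PSMD6, with the largest estimate of 2.15 ± 0.87, was called on 8 and 1 counts with JQ1 and lost its call under DESeq2. Its call was also lost without JQ1 replicate 2, A-485 replicate 1 or A-485 replicate 2, where its differences were 1.36, 2.45 and 1.75. JQ1 was also higher than AZ-5576 for 42 of the 43 members, against 84.9% of all genes, the exception being PSMD13 at 0.17 ± 0.62.

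The labelled share is the part of a gene's counts that carry conversions, taken within each library. In DMSO it had a median of 2.00% over the 43 members and 4.73% over all 7960 genes tested, and 5 members were above the median of all genes. PSMD10, a cap chaperone also known as gankyrin, was highest at 7.70 ± 2.18%, followed by PSMD12 at 7.13 ± 1.42%, PSMG2 at 7.07 ± 1.04%, PSMC2 at 6.07 ± 0.90% and PSMD5 at 5.90 ± 0.43% (SD, n = 2 each). PSMB3, a beta subunit without an active site, was lowest at 0.499 ± 0.0623%. Of the 5 members above the median of all genes, 3 are assembly chaperones (PSMD10, PSMG2 and PSMD5). The other assembly chaperones were below it: PSMG4 at 3.29%, PSMG3 at 1.70%, PSMG1 at 1.53% and PSMD9 at 1.06%. No alpha or beta ring gene was above the median of all genes. The share counts reads with a detected conversion and depends also on the T content of the read part of each mRNA, whose effect was not tested.

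The share was lower in 43 of 43 members under actinomycin D, against 98.6% of all genes, and in 43 of 43 under AZ-5576, against 93.6%. With JQ1 it was lower in 16 of 43 members, or 37.2%, against 15.4% of all genes, and higher in 0 (0 at an unadjusted p under 0.05, edgeR), against 0.364%. The PSMD7 share was 1.58 and 1.02% with JQ1 and 3.84 and 3.56% in DMSO. The PSMD5 share was 1.80 and 2.22% with JQ1 and 6.20 and 5.60% in DMSO. Neither pair of groups overlaps, and both changes passed the test (edgeR, adjusted p 0.00188 and 0.00674). PSMD7 lost this call without DMSO replicate 1, where its log2 change was -1.49. PSMD5 lost it without JQ1 replicate 1, DMSO replicate 1 or DMSO replicate 2, where its changes were -1.46, -1.54 and -1.69. The count of 16 is not stable. Without DMSO replicate 1 it was 1, or 2.33%, which is below the 4.10% of all genes, and without DMSO replicate 2 it was 4, or 9.30%, against 5.95%. It was 9 (20.9%) without JQ1 replicate 2, against 8.64%, and 13 (30.2%) without JQ1 replicate 1, against 12.6%. When labelled and unlabelled counts were each scaled to their own human totals (TMM), which removes a change of the share common to all genes, the median share change of all genes moved up by 0.66, and 0 members were lower and 2 higher, against 3.74% and 2.85% of all genes. With A-485 no share passed (0 lower and 0 higher by edgeR, with 2 lower and 0 higher at an unadjusted p under 0.05), against 2.64% of all genes lower and 0.0251% higher.

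The pool of proteasome mRNA moved little in the 2 hours. Summed total counts per 1000 spike-in counts were 85.6 ± 3.96 with actinomycin D, 88.5 ± 3.80 under AZ-5576, 81.2 ± 5.27 with JQ1, 88.7 ± 1.92 with A-485 and 89.4 ± 6.19 in DMSO (SD, n = 2 each), and no difference from DMSO was larger than the sum of the 2 SDs. Replicate 2 was above replicate 1 in all 5 groups. The sums were 77.5 and 85.0 with JQ1 and 85.0 and 93.8 in DMSO, so that JQ1 was the lower of each same-numbered pair, and the JQ1 and DMSO ranges nearly touch. The total test covered 46 members and 14572 genes. With actinomycin D 5 members were lower, or 10.9%, against 19.7% of all genes. Under AZ-5576 2 were lower, or 4.35%, against 12.9%, and with JQ1 3 were lower, or 6.52%, against 7.35%. No member was higher with any of the 4 drugs by edgeR (0 at an unadjusted p under 0.05) or DESeq2, against 0.336% of all genes with actinomycin D, 0.782% under AZ-5576, 0.837% with JQ1 and, for A-485, 0.0343%. With A-485 0 were lower by edgeR or DESeq2, and 1 (PSMD13, -0.26 ± 0.10) at an unadjusted p under 0.05, against 1.2% of all genes. The Drosophila RNA was added after RNA purification, so the total values do not measure the number of cells or the RNA per cell.

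PSMG2 fell with 3 of the drugs. It had 370 and 299 normalised total counts (per 1000000 spike-in counts) with actinomycin D, 391 and 353 under AZ-5576, 367 and 359 with JQ1, 495 and 429 with A-485, and 491 and 563 in DMSO. The first 3 groups lie below both DMSO libraries and the A-485 group overlaps them. The log2 changes were -0.66 ± 0.13 with actinomycin D, -0.50 ± 0.13 under AZ-5576 and -0.54 ± 0.13 with JQ1 (edgeR adjusted p 1.79e-04, 0.00431 and 0.00463), and -0.19 ± 0.13 with A-485. These comparisons share the DMSO libraries. PSMG2 exons overlap those of CEP76 and SPIRE1 on the other strand.

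PSMD12, a lid subunit, had 468 and 444 with actinomycin D, 451 and 526 under AZ-5576 and 569 and 696 in DMSO, and fell by 0.47 and 0.37 on the log2 scale. PSMD5 had 562.2 and 622.0 with actinomycin D and 723 and 806 in DMSO, a change of -0.37 ± 0.11. PSMD7 had 1507 and 1488 with actinomycin D, 1486 and 1301 with JQ1 and 1853 and 1792 in DMSO, and fell by 0.28 and 0.39. PSMD6, a lid subunit, fell by 0.36 with actinomycin D, and PSMC2 fell by 0.35 with JQ1. These falls are small, and the calls depend on DMSO replicate 2: without it the members called lower were 1 of 46 with actinomycin D, against 8.33% of all genes, 0 under AZ-5576, against 6.24%, and 0 with JQ1, against 1.92%. Calls were also lost without other libraries. With actinomycin D, PSMD7 and PSMD6 lost theirs without either actinomycin D library, and PSMD7 also without DMSO replicate 1. PSMD5 lost its call without actinomycin D replicate 1 and PSMD12 without replicate 2. Each other call named here was lost without 1 library of its drug, except the calls of PSMG2 with actinomycin D and with JQ1. The estimates kept their sign. Without DMSO replicate 2, PSMD6 was at -0.20 and PSMD12 at -0.32 with actinomycin D, while PSMD7 was at -0.31 with actinomycin D and -0.41 with JQ1, as far from 0 as with it. PSMG2 was then at -0.40 under AZ-5576 and -0.44 with JQ1. The 1 left with actinomycin D without DMSO replicate 2 was PSMG2, whose call also held when libraries were scaled to human counts. That scaling moved the median of all genes up by 0.25 and gave 10 members higher with actinomycin D (21.7%, against 5.43% of all genes) and 4 under AZ-5576 (8.70%, against 3.75%), so the direction of the members as a group depends on the spike-in.

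**Figure D4:**
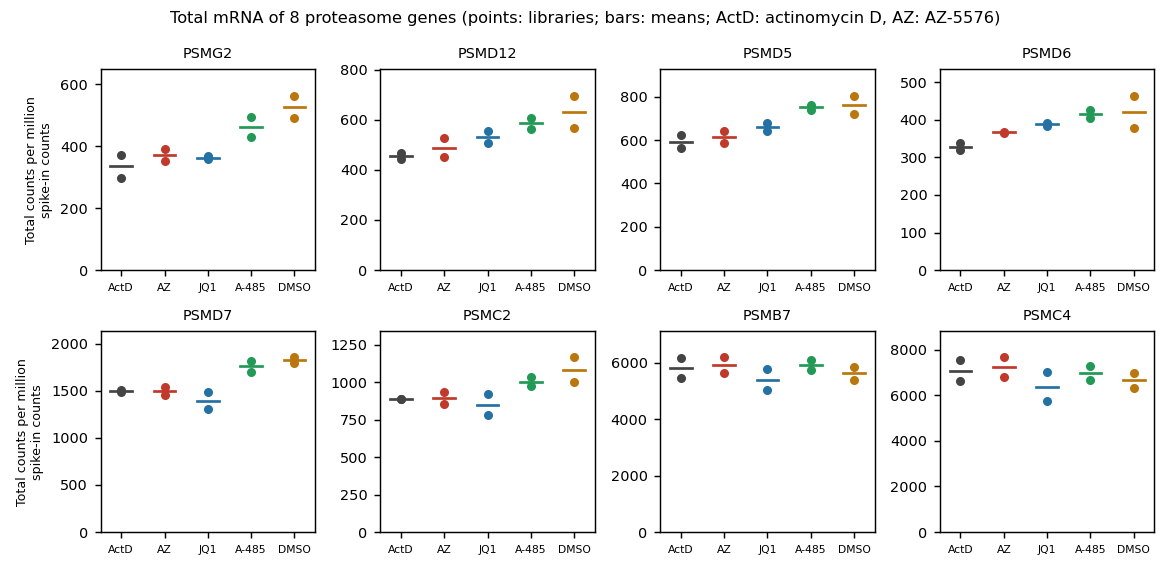
Total counts per 1000000 spike-in counts of 8 members in each group (linear axes from 0, a separate scale per gene); points are libraries and bars are means of 2. PSMG2 is 299 to 391 with actinomycin D, AZ-5576 and JQ1 against 491 and 563 in DMSO, while for PSMB7 and PSMC4 the actinomycin D and DMSO points overlap.

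Members with a high labelled share in DMSO had the lower total changes. Of the 10 members with the highest share, 4 were called lower in total RNA with actinomycin D, 2 under AZ-5576 and 3 with JQ1, against 1, 0 and 0 of the other 33. Among all genes tested in total RNA, 19.7%, 12.9% and 7.35% were lower with these drugs. Most of the members' calls were lost without DMSO replicate 2, as given above. Whether genes outside the members follow the same relation was not tested. The median log2 change with actinomycin D was -0.28 over the 10 and -0.08 over the 33. As a description across the 43 members, the DMSO share and the total change had Pearson r of -0.77 and Spearman rho of -0.69 for actinomycin D, -0.73 and -0.69 for AZ-5576, -0.55 and -0.54 for JQ1, and -0.50 and -0.52 for A-485. Genes are not independent replicates, and the share and the change use the same DMSO libraries, so the measures are not independent. PSMD6 departs from the relation, with a share of 1.25 ± 0.58% and a change of -0.36.

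**Figure D5:**
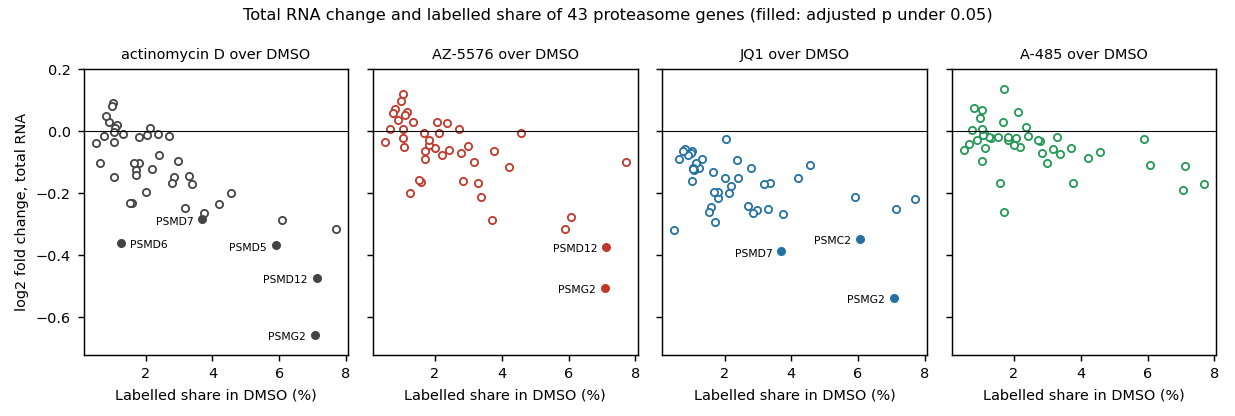
Log2 fold change of total RNA over DMSO against the labelled share in DMSO (percent) for 43 members, 1 panel per drug; filled points passed an adjusted p under 0.05. With actinomycin D the filled points PSMG2, PSMD12 and PSMD5 lie at shares of 5.90% or more, and with A-485 no point is filled.

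The tissue-restricted members were low. PSMB11, the thymus subunit, had 0 to 1 and PSMA8, the testis subunit, 0 to 3 total counts in a library. Of the interferon-inducible beta subunits, PSMB8 had 3 to 13 and PSMB9 26 to 63, and PSMB10 had 1174 to 1525. None of the last 3 passed the test in total RNA with any drug. PSMB10 had 677 and 701 normalised total counts with actinomycin D, 641 and 556 with JQ1, and 696 and 668 in DMSO. Its 4 and 0 labelled counts with JQ1 and 12 and 7 in DMSO were too few for the labelled test.

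Genes around the proteasome whose symbols are not of the PSM form were read from lists of related genes, with the same edgeR fits and an adjusted p under 0.05. Of 11 tested proteasome-bound proteins, 3 were lower in labelled RNA with JQ1, against 28.6% of all genes, so the share is near that of all genes. They were SEM1, a small lid subunit, at -2.43 ± 0.83, ECPAS, a scaffold that binds the proteasome, at -1.97 ± 0.58, and POMP, the chaperone that starts beta ring assembly, at -1.11 ± 0.42 (log2, SE). Of 9 tested regulators of proteasome genes, 1 was lower with JQ1, STAT3 at -2.73 on the log2 scale. STAT3 was also the 1 regulator lower with A-485, where it fell by 1.52, against 4.86% of all genes.

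In total RNA, 5 of 11 tested regulators were lower with actinomycin D, against 19.7% of all genes, 3 under AZ-5576, against 12.9%, and 2 with JQ1, against 7.35%. Whether the regulators differ from the members was not tested. NFE2L2, a relative of NFE2L1 that binds the same element, fell by 1.30 with actinomycin D, 1.49 under AZ-5576 and 1.08 with JQ1. NFE2L1 fell by 0.41 with actinomycin D and 0.43 under AZ-5576, and NFYA by 0.56 and 0.62. The other regulators called were FBXW7 (-0.82) and NGLY1 (-0.39) with actinomycin D and STAT3 (-0.35) with JQ1. The median log2 change of the 11 was -0.33 with actinomycin D, near the -0.27 of all genes, and that of the 46 members was -0.11. Of 11 proteasome-bound proteins, 1 was lower with actinomycin D and 2 under AZ-5576. AKIRIN2, which brings proteasomes into the nucleus, fell by 0.98 under AZ-5576, and ZFAND5, which binds and activates the proteasome, fell by 0.55 with actinomycin D and 0.78 under AZ-5576.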

How the data were processed

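The deposited files hold raw counts per gene, not normalised, for all human reads, for human reads with T-to-C conversions and for Drosophila reads. Per the labels' protocols, iodoacetamide-treated RNA received 5% S2 (Drosophila) material before QuantSeq 3′ library preparation, in which a transcript gives about 1 tag. Per the submitters' processing notes, the tools were bedtools, Trim Galore 0.6.5 and bcl2fastq 2.17.1.14 with hg38 and dm6. The strand setting, conversion caller and aligner are not given in the sources. Reads of the 32 pseudogenes of members could be split from them: pseudogene counts were 0.257 to 0.324% of the members' total counts in the group means. Exons of 23 members overlap another gene in GENCODE release 29, which held 55838 of the identifiers.

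Tests used edgeR 4.0.16 (two-sided, robust quasi-likelihood; R 4.3.3), taking the spike-in sum as library size, all 10 libraries in 1 fit, 5 residual degrees of freedom, and Benjamini-Hochberg adjustment over all genes tested at 0.05. The share was tested on labelled and unlabelled counts of each library, with the drug effect on their ratio. Standard errors were taken from the F statistic. In labelled RNA the prior degrees of freedom were infinite, so the spread of a gene came from the trend over all genes and not from its own libraries; in total RNA they were 33.0. Biological coefficients of variation were 10.9% (total), 17.8% (share) and 24.8% (labelled). Intervals at 95% and the limit of 3 counts cover counting error only. The fits were tested on simulated data. Members with values in every library were taken by rule: the most labelled of each class, up to 6 called with the lowest adjusted p, and the extreme changes; others named were chosen after their values were seen. The members, lists and tests were chosen with earlier results of these data known. Results of some genes of the related lists and markers are not reported here.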

Additional observations from a re-analysis of the deposited data

How the results depend on the processing

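Scaling to human counts (TMM) moved most counts of members called. In labelled RNA it gave 7 lower and 1 higher with actinomycin D (16.3% and 2.33%), against 8.89% and 0.425% of all genes. Under AZ-5576 it gave 23 and 1 (53.5% and 2.33%), against 26.1% and 6.07%. With JQ1 it gave 1 and 2 (2.33% and 4.65%), against 4.91% and 6.03%. For AZ-5576 over actinomycin D it gave 1 and 1 (2.33% each), against 0.100% and 5.39%. For JQ1 over AZ-5576 it gave 1 and 21 (2.33% and 48.8%), against 6.07% and 26.3%. For A-485 over JQ1 it gave 2 higher (4.65%), against 6.34%. In total RNA it gave 1 lower and 10 higher with actinomycin D, 0 and 4 under AZ-5576, and 0 lower with JQ1. For the share it gave 4 lower and 1 higher with actinomycin D (9.30% and 2.33%), against 5.84% and 0.389% of all genes. Under AZ-5576 it gave 24 and 1 (55.8% and 2.33%), against 21.3% and 4.84%. With JQ1 it gave 0 and 2 (4.65% higher), against 3.74% and 2.85%. It reversed PSMG1 with actinomycin D (log2 change 3.36 in labelled RNA, 3.52 in the share) and under AZ-5576 (1.32 in the share), and PSMD13 under AZ-5576 (1.34) and for JQ1 over AZ-5576 (-2.52). The median of all genes moved by 1.07, 2.89, 0.86 and 0.23 in labelled RNA with actinomycin D, AZ-5576, JQ1 and then A-485. Scaled to the human counts of each library, the labelled sums were 198%, 25.8%, 79.6% and 107% of DMSO for those drugs, and the total sums 103% with actinomycin D and 99.7% with JQ1. Fitting only the groups compared gave 3 lower (6.67%) in total RNA with actinomycin D, against 19.6% of all genes. With JQ1 that fit gave 1 lower (2.22%), against 6.75%. For AZ-5576 over actinomycin D in labelled RNA it kept 418 genes and 1 member (PSMG1), so its 0 higher is no test of the 7. In total RNA with actinomycin D, Drosophila size factors gave 3 lower (6.52%), against 17.1% of all genes, and no filter gave 3 (6.25%), against 9.22%. DESeq2 gave 4 lower (8.70%) in total RNA under AZ-5576, against 11.7%. Leaving out 1 replicate gave 13 to 17 lower in labelled RNA with JQ1, 2 to 7 higher for AZ-5576 over actinomycin D, 1 to 5, 0 to 4 and 0 to 3 lower in total RNA with actinomycin D, AZ-5576 and JQ1, and 1 to 13 lower for the JQ1 share. It gave sums of 50.4 to 52.6% (labelled, JQ1), and 91.2 to 101%, 94.4 to 104% and 94.6 to 104% (total, actinomycin D, AZ-5576 and A-485). With the replicate block, 10 members were lower in total RNA with actinomycin D (21.74%, against 25.03% of all genes). Under AZ-5576 it gave 5 lower (10.87%, against 15.46%), and with JQ1 12 lower (26.09%, against 13.53%). Only with JQ1 was the percentage of members above that of all genes. Same-numbered libraries correlated at -0.04 to 0.17 in total RNA, over 0.1 in 5 of 10 pairs of groups (0.15 for JQ1 and DMSO). In labelled RNA they correlated at 0.05 at most, so a pairing is not established. Other counts stayed within 1.5 times. Other causes were not tested. Depth limits the labelled test of A-485, where the self-test recovered 5% of 2-fold decreases under its own settings, and intervals do not cover variation between cultures.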
